A study of Mus musculus with 12 samples.

Results

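The Bach2 peaks described here lie in stretches of the mouse genome with no gene locus nearby. Of 22494 Bach2 peaks listed for wild type induced regulatory T cells (iTreg), 1215 (5.40%) had a midpoint outside each of the 23700 gene loci of the expression files and more than 100 kb from the nearest end of any of them. Another 11969 peaks lay inside a locus and 9310 lay outside at up to 100 kb, and these 21279 are called the other peaks below. The distance was measured to the locus intervals, and a longer gene model can reach a peak: in the GENCODE annotation of the same build, 90 of the 1215 (7.41%) lay inside a gene, 524 lay up to 100 kb from one and 601 (49.5%) lay more than 100 kb from each of them. The name "far" therefore refers to the loci of the expression files.

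The study compared Bach2 binding in wild type iTreg cells with RNA from iTreg cells with and without Bach2. CD4+ T cells of C57BL/6J mice, taken from lymph nodes and spleen, were sorted as naive and cultured for 3 days on antibodies to CD3 and CD28 (10 µg/ml each) with IL-2 (100 IU/ml) and human TGF-β1 (5 ng/ml), which is the iTreg condition. The binding data are 1 chromatin immunoprecipitation (ChIP) library with 1 input library, both of wild type iTreg cells, and the RNA data used for tests are 3 wild type (WT) and 3 Bach2KO iTreg libraries. RNA of 1 fresh naive, 1 Th1, 1 Th2 and 1 Th17 library, all wild type, served for levels without a test. The Th1, Th2 and Th17 cells were cultured for 3 days on the same antibodies (10 µg/ml each), with no IL-2 listed. Th1 cells received IL-12, Th2 cells received IL-4, and Th17 cells received IL-6 with TGF-β1. The labels do not describe the deletion, the ages or whether libraries came from separate mice, so the p-values measure the spread between these libraries, which may be technical.

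Bach2 is a transcription factor of the CNC family that pairs with small Maf proteins on DNA and mostly acts as a repressor. Its sites contain the AP-1 core, which Jun, Fos and Batf proteins also bind, and in CD4+ T cells it restrains effector programmes and favours regulatory T cells. Distal enhancers, the stretches of DNA that act on a promoter from afar, often lie in gene-poor regions beside genes that specify a cell type. Which gene such a region acts on cannot be read from distance, and the nearest gene is used here as a position.

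The strongest far peaks show both kinds of summit sequence met in these regions, with and without an AP-1 core. The sequences are 201 bases of mm9 centred on the summit that the authors' peak caller gave, on the plus strand, and are named by the nearest locus. Capitals mark each match to TGANTCA, the AP-1 core, which reads the same way on both strands except for its middle base. The first 4 come from the far peaks with many tags.
Bach2 (chr4:32336786-32336986): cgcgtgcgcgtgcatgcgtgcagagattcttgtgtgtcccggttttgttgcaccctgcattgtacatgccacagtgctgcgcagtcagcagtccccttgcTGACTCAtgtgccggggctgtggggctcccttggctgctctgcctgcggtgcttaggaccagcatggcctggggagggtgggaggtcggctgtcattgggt
Rasgrp1 (chr2:117272727-117272927): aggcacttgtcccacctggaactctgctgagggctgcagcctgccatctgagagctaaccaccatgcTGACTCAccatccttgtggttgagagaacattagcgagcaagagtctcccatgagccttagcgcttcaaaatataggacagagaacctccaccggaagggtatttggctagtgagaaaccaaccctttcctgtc
Fam92b (chr8:122856750-122856950): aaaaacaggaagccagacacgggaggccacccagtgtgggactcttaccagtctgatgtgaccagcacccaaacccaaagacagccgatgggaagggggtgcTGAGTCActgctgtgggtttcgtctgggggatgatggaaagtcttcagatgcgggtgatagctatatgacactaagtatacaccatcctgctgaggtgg
Gm8709 (chr10:26264709-26264909): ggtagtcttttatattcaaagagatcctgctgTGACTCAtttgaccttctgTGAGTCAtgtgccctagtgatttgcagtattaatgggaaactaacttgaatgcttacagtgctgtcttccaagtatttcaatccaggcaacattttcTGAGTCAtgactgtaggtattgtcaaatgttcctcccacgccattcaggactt
In the Bach2 window the core stood 3 bases from the summit, in the Fam92b window 5 bases and in the Rasgrp1 window 30 bases on the lower-coordinate side (an offset of -30). In these 3 windows the core was also preceded by the outer TGC of a Maf recognition element, called the extended core below. The Gm8709 window held 3 cores, none of them extended. Another pair of windows, from peaks of high fold enrichment, had cores beside the summit.
Zswim2 (chr2:83899497-83899697): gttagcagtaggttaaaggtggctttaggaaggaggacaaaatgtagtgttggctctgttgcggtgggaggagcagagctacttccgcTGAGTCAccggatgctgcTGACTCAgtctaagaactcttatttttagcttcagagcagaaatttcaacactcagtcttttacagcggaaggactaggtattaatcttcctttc
Ado (chr10:67121066-67121266): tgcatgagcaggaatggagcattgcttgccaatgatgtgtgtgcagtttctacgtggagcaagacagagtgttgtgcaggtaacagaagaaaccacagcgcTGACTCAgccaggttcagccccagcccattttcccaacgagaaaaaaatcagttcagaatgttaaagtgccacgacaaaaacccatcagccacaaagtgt
The Zswim2 window held 2 cores, one on each side of the summit, and a match to the extended core. The Ado window held 1 core, 4 bases from the summit. The last pair comes from peaks of similar strength and holds no TGANTCA.
Tbl1xr1 (chr3:21834928-21835128): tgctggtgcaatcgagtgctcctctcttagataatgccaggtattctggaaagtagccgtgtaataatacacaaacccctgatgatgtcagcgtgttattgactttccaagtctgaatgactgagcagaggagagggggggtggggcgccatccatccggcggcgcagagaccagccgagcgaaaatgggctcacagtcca
Max (chr12:78186295-78186495): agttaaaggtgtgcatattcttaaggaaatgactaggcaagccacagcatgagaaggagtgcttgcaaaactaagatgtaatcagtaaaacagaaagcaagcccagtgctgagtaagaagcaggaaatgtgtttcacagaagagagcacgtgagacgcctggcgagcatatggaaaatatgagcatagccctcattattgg
Absence of these letters from the window says nothing about which factor was bound there.

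Of the 10 far peaks with most tags, 5 had the core in this window, as did 6 of the 10 with the highest fold enrichment.

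Across the far peaks the core was common and sat at the summit. TGANTCA was found on either strand in 559 of 1215 summit windows (46.0%, 95% Wilson interval 43.2 to 48.8), against 43.0% of the other peaks and 7.28% of 2430 windows of the same length placed 1 kb to each side of the far summits. The form TGAGTCA alone was in 40.3% of far and 38.5% of other peaks, and TGATTCA, which differs in the middle base, in 9.30% and 6.65%. In 564 far peaks with a core centred within 100 bases, the nearest core stood a median of 26 bases from the summit, and 77.8% stood within 50 bases. Windows with at least 2 cores made up 9.79% of far and 6.96% of other peaks. These intervals cover counting error within 1 library, and no test was made between peak classes because peaks of 1 library are not replicates. The order of far and other peaks turned with a limit of 200 kb, at 39.3% and 43.2%.

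**Figure D1:**
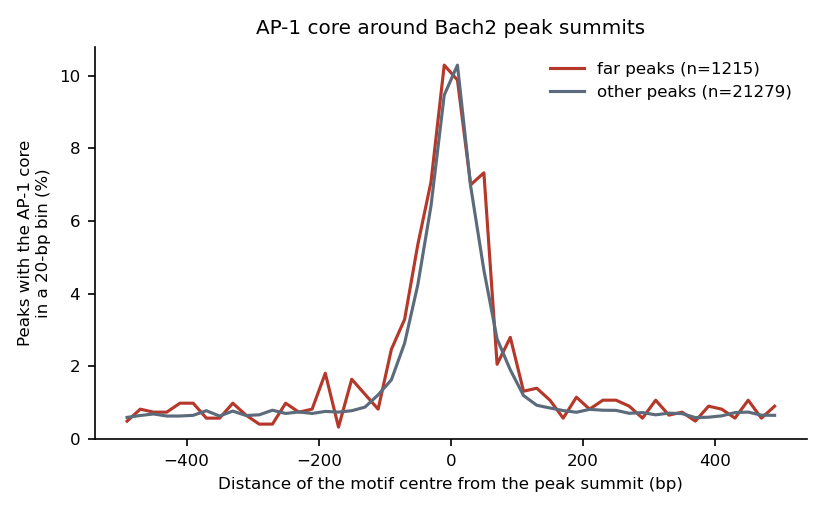
Percentage of far peaks (red) and other peaks (grey) with an AP-1 core centred in each 20-bp bin, by the distance of the core from the peak summit in bp. Both curves rise to about the same height at the summit (10.3% of far peaks in the bin just below it and 10.3% of other peaks in the bin just above it) and are low beyond 200 bp.

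Shares of longer motifs around the core were close between far and other peaks. The extended core was in 9.96% of far windows (8.40 to 11.8), 10.4% of other windows and 0.165% of windows 1 kb away, and the full palindromic Maf recognition element was in 6 far windows (0.494%) against 0.616% of other windows. A form of the AP-1-IRF composite element, at which Batf and Irf4 bind together, was in 13 far windows (1.07%) and 0.794% of other windows. TGACGTCA, the cyclic AMP response element, was in 1 far window (0.0823%) and 0.475% of other windows. The Runx word TGTGGTT was in 10.7% of far windows, 9.61% of other windows and 4.44% of far flanks, and the Ets word AGGAAGT in 13.2%, 11.8% and 4.65%. The Gata word AGATAA was less frequent at far summits (9.63%) than in their flanks (13.3%), and the core of the CTCF motif was in 5 far windows (0.412%) and 0.907% of other windows. Each word was searched on both strands, and the words other than the AP-1 core, its TGAGTCA form and the extended core were chosen after the data had been seen.

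The core share did not fall evenly with distance from genes. It was 41.8% in peaks inside a locus, 49.7% in far peaks at 100 to 200 kb (n = 785; 46.2 to 53.2), 39.9% at 200 to 500 kb (n = 363; 35.0 to 45.1) and 35.8% beyond 500 kb (n = 67; 25.4 to 47.8). It also differed with the size of the far peak, from 38.5% at 10 to 14 tags to 60.8% (49.4 to 71.1) in the 74 far peaks with 100 or more tags. In other peaks of 100 or more tags it was 52.1%. GC content of the summit windows was a median of 45.3% in far and 47.3% in other peaks, and 42.3% in far flanks. Far windows had fewer CpG dinucleotides: 19.01% had none, against 13.2% of other windows, and 0.823% had 10 or more, against 6.68%.

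The far peaks were somewhat smaller than the other peaks but not lower in fold enrichment. The tag count of a peak, the number of ChIP reads in it, had a median of 23 (quartiles 14 and 40, highest 761) in far peaks and 29 (17 and 54, highest 3562) in other peaks, and 59.5% of far peaks had fewer tags than the median other peak. Peaks at the smallest count in the list, 10 tags, made up 9.14% of far peaks (111) and 4.35% of other peaks. Far peaks with 100 or more tags numbered 74 (6.09%), against 10.0% of other peaks. Length had a median of 536 bp (quartiles 414 and 707) in far and 595 bp in other peaks. Fold enrichment over the local background, the authors' value, had a median of 13.4 in far and 12.8 in other peaks, and 5.02% and 4.30% reached 50-fold. Tags per kb of peak length were lower in far peaks, with a median of 42.2 against 48.3. The deposited score, 10 times the −log10 p-value, had a median of 100.1 in far and 105.7 in other peaks. A deposited false discovery rate of at most 5% was reached by 87.3% of far and 88.9% of other peaks. The library held 8992019 ChIP tags and 9999999 input tags, and without a replicate ChIP none of these differences has a replicate check.

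Tags and length, but not fold enrichment, fell steadily with distance outside genes. The median tag count was 34 at up to 10 kb from a locus, 28 at 10 to 50 kb, 26 at 50 to 100 kb, 24 at 100 to 200 kb, 22 at 200 to 500 kb and 18 beyond 500 kb. Median length fell from 642 bp in the first of these bins to 442 bp in the last. Peaks inside loci had a median of 28 tags, close to the value at 10 to 50 kb. Median fold enrichment stayed between 12.4 and 14.02 in each of the 7 distance classes.

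**Figure D2:**
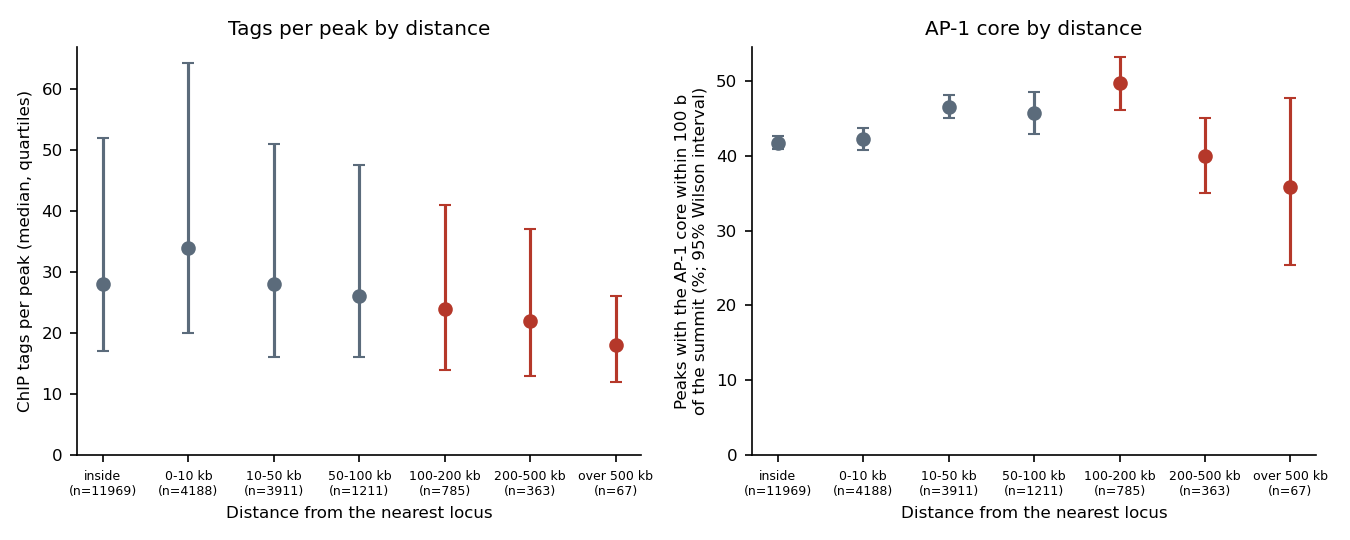
Left, ChIP tags per peak (median with quartiles) and right, percentage of peaks with an AP-1 core within 100 bases of the summit (95% Wilson interval), by distance of the peak midpoint from the nearest locus; far peaks are red. Median tags fall from 34 at up to 10 kb to 18 beyond 500 kb, and the core share is highest, 49.7%, at 100 to 200 kb.

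The far peaks stood close to the 100 kb limit in most cases. The distance to the nearest end of a locus had a median of 165.5 kb (quartiles 128.8 and 241.7), with 430 peaks beyond 200 kb, 67 beyond 500 kb and 12 beyond 1 Mb. Just inside the limit lay a peak at 100.316 kb from D330050G23Rik (34 tags) and 1 at 100.516 kb from Zfpm1 (31 tags). Just outside it lay peaks at 99.989 kb from Slc30a5 (10 tags), 99.947 kb from Cpeb4 (19 tags) and 99.8545 kb from Acsl4 (42 tags). The 5 farthest peaks were small. They lay 1613 and 1378 kb from Sel1l (11 and 21 tags), 1474 kb from Pcdh19 on the X chromosome (10 tags), 1393 kb from Tyrp1 (10 tags) and 1376 kb from Cox7c (10 tags).

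Sequence this far from genes held few peaks for its size. It made up 26.97% of the sequenced bases (689.4 Mb) and 5.40% of the peaks, which is 1.76 peaks per Mb against 11.4 per Mb in the rest of the genome. Repeats were not masked in these counts of bases, and their part in the density was not tested. The density differed more than 10-fold between chromosomes: chromosome 13 had 3.87 far peaks per Mb of far sequence (117 peaks), chromosome 9 had 3.77 (89 peaks) and chromosome 15 had 3.15 (89 peaks), while chromosome 17 had 0.712 (14 peaks), chromosome 5 had 0.714 (25 peaks) and the X chromosome 0.346 (19 peaks). The X chromosome was also low outside far sequence, at 4.26 peaks per Mb. Chromosome 12 had the highest share of its peaks in far sequence, 10.9% (115 peaks), and also the highest share of bases there, 37.5%. Chromosome 11 had 1.73% of its peaks and 20.1% of its bases in far sequence.

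**Figure D3:**
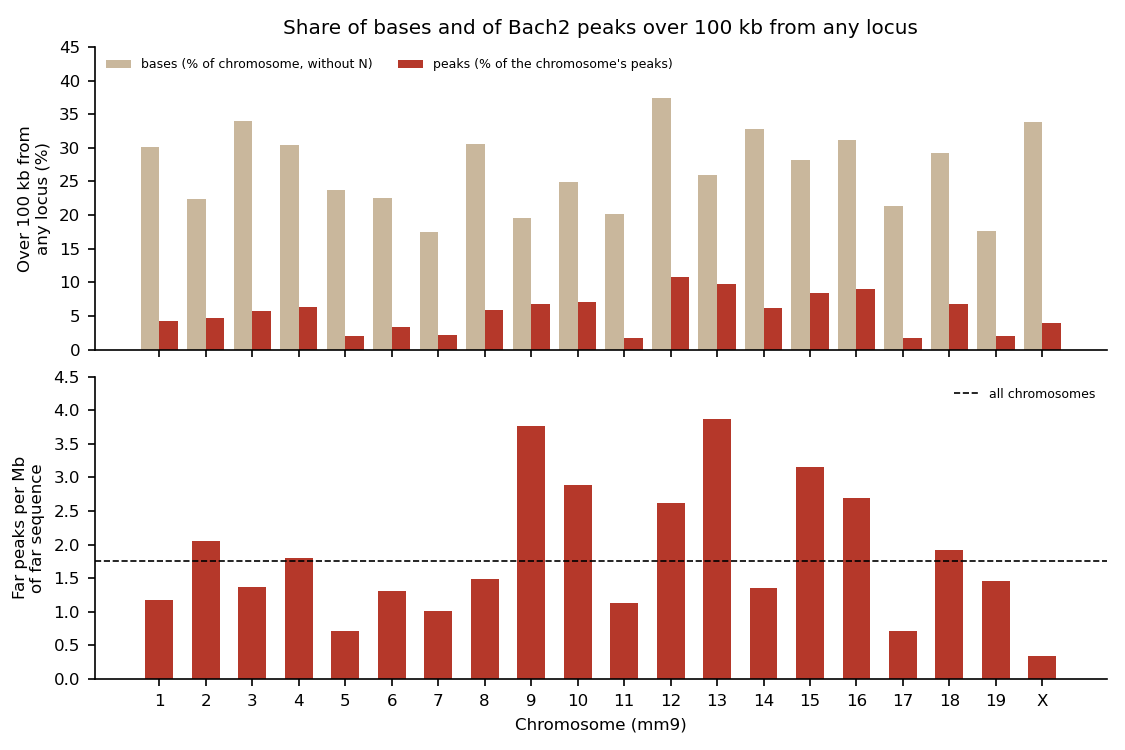
Top, the percentage of bases (tan) and of Bach2 peaks (red) more than 100 kb from any locus, for each chromosome; bottom, far peaks per Mb of far sequence, with the value for all chromosomes (1.76) as a dashed line. The share of peaks is below the share of bases on each of the 20 chromosomes, and density ranges from 0.346 on X to 3.87 on chromosome 13.

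Many far peaks stood in groups. The nearest peak of any kind lay a median of 13.4 kb from a far peak and 10.0 kb from another peak, and within 20 kb in 58.0% and 66.6%. Joining far peaks with midpoints up to 20 kb apart gave 96 groups of 3 or more with 405 peaks (33.3% of far peaks), 137 pairs, and 536 far peaks that joined no other. Peaks in the groups of 3 or more had a median of 33 tags and 634 bp, against 19 tags and 483.5 bp for the remaining far peaks, while their core shares were 44.2% and 46.9%. By intergenic gap, the far peaks filled 396 gaps, of which 187 held 1 far peak and 25 held 10 or more (375 peaks, 30.9%).

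Several of the fullest gaps bordered regulators of lymphocytes. The gap between Pvt1, a long noncoding RNA gene beside Myc, and LOC432958 on chromosome 15 was 1163 kb long and held 33 far peaks with 1308 tags in all. Of these, 16 formed a group of 121 kb (chr15:62549905-62671226) that began 468 kb from Pvt1. A second group of 16 reached from 132 to 249.9 kb from Bcl6 and spanned 118 kb (chr16:24120869-24238941). Bcl6 encodes a transcriptional repressor on which follicular helper T cells and germinal centre B cells depend. Because its gap is short, the sequence beside Bcl6 had 88.3 far peaks per Mb of far sequence. Between Eea1 and Btg1, an antiproliferative gene of resting lymphocytes, stood 20 far peaks, and 19 stood between Trib2, a pseudokinase gene, and Lpin1. A gap of 1007 kb on chromosome 12 between the unexpressed loci 4933406K04Rik and 4930465M20Rik held 24. Bcl11b, a factor that maintains T cell identity, had 21 far peaks within 1 Mb, and these began 349 kb from it.

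A dense group lay at Bach2 itself, with more tags than any other group except 3 peaks near Lrrc4c (1404 tags) described below. All 13 far peaks nearest to Bach2 stood in 61.4 kb (chr4:32329889-32391325), 114 to 174 kb upstream of the Bach2 locus of the expression files, and held 1347 tags. The largest, chr4:32336329-32338646, had 618 tags, a fold enrichment of 77.6 and the summit core printed above. The next had 112, 89, 88 and 80 tags, and the smallest had 20. Of the 13, 5 had a core in the summit window. GENCODE draws a longer Bach2 gene that contains each of the 13, so by that model they are intragenic.

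**Figure D4:**
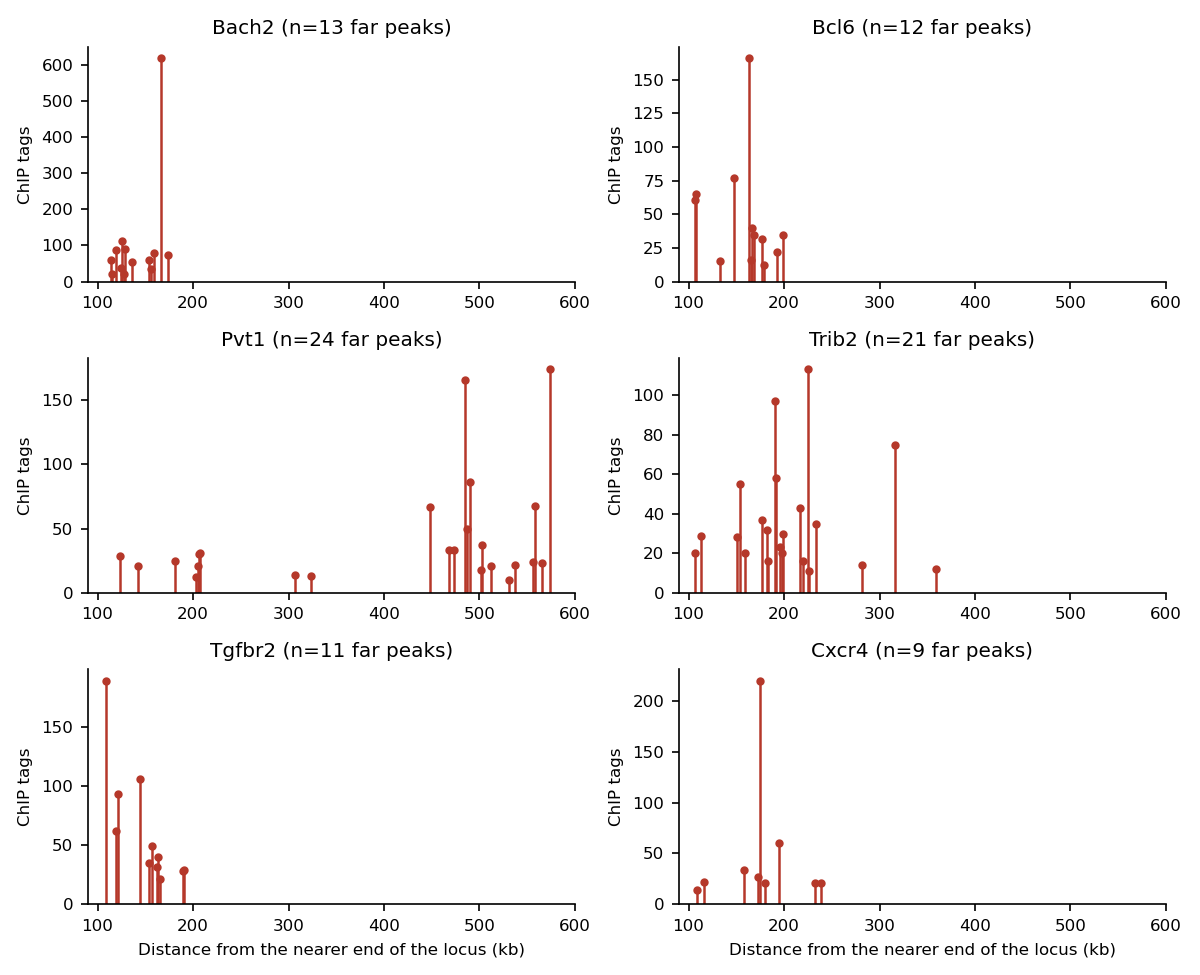
ChIP tags of each far peak (vertical line with a point) against its distance in kb from the nearer end of the locus, for 6 loci with many far peaks; tag axes differ between panels. The Bach2 panel has 1 peak of 618 tags among 13, the Bcl6 and Tgfbr2 peaks stand within 200 kb, and 15 of the 24 Pvt1 peaks stand beyond 440 kb.

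The strong far peaks stood both in groups and apart from other far peaks, beside genes of varied kinds. A peak 140.6 kb upstream of Tbl1xr1, a subunit of nuclear corepressor complexes, had 398 tags (chr3:21834352-21835576), and a peak beside Pabpc2 on chromosome 18 had 295 tags and the highest fold enrichment among far peaks, 200.3. A peak 104 kb upstream of Rasgrp1, which activates Ras below the T cell receptor, had 250 tags, and 1 between 1810013D10Rik and Rbpj, the DNA-binding partner of Notch, had 253. Peaks near Gm8709 (261 tags), Fam92b (259 tags) and Eea1 (248 tags) were also among the 10 with most tags. The peaks near Tbl1xr1 and 1810013D10Rik were members of groups of 6, that near Atp10a of a group of 5, and those near Gm8709 and Fam92b of groups of 3. By fold enrichment, peaks near Max, the partner of Myc proteins (138.6), Zfp386 (115.2), 4930428G15Rik (114.7), 1700041M19Rik (103.1), Zswim2 (99.9), Atp10a (92.9) and Ado (90.1) were among those that followed the peaks of Pabpc2 and Gm8709 (118.3). The Zfp386 peak lay 1057 kb from that locus, inside an immunoglobulin heavy chain variable segment of GENCODE, and the Fam92b peak lay inside the GENCODE gene Gm20388.

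A pair of tag-rich peaks stood apart from this pattern. The far peak with most tags, chr2:98506304-98507585 (761 tags), and the third, chr2:98502298-98503244 (478 tags), lay more than 1 Mb from Lrrc4c and had the lowest fold enrichments of all far peaks, 3.61 and 4.39. By midpoint the former lay inside the GENCODE protein-coding gene Gm10800 and the latter inside Gm10801. In these peaks 34.6% and 69.9% of the 49-base words around the summit occurred at a single place in the genome, and the most repeated word occurred at 37 places. All words were unique in 94.7% of far peaks and 94.9% of other peaks, and 2 far peaks had fewer than 50% unique words.

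T cell genes were met often as nearest genes. Of 131 regulators, receptors and cytokines of CD4 T cells on a list made for this work, 23 (17.6%) were nearest to at least 1 far peak, against 497 loci (2.14%) of all gene symbols. The list was chosen with earlier results of these data known, so its shares are a description only. Genes of this list also border far sequence more often, 31 of 131 (23.7%) against 2789 of 23543 loci (11.8%). Among bordering loci, 23 of 31 listed genes (74.2%) and 497 of 2789 loci (17.8%) were nearest to a far peak. Listed genes were also expressed more often in WT iTreg cells, with shares given below, and the part of this difference was not tested. The 23 genes were nearest to 130 far peaks (10.7%), while 3.80% of the other peaks had a listed gene as nearest. Far peaks nearest to listed genes had a median of 31.5 tags, against 22 for the remaining far peaks. By count of far peaks, the 23 were Ets1 (14), Bach2 (13), Bcl6 (12), Tgfbr2 (11), Gata3 (10), Cxcr4 (9), Jun (8), Foxo1 and Runx1 (6 each), Cblb, Klf6 and Tox (5 each), Icos (4), Foxp1, Ifng, Lef1 and Nrp1 (3 each), Dusp6, Ikzf2, Maf and Prdm1 (2 each), and Runx2 and Zeb1 (1 each). Within 1 Mb of a listed gene lay 400 far peaks (32.9%), against 18.2% of other peaks, with 36 at 385 to 929 kb from Myc, 21 around Tgfbr2, 20 around Socs2 and 16 around Id2.

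Far peaks lay upstream of the nearest gene in 597 cases (49.1%) and downstream in 454 (37.4%), and 164 had a nearest locus whose strand could not be matched. They had 497 nearest loci in all, of which 272 were nearest to a single far peak. Outside the T cell list, the loci nearest to most far peaks were Pvt1 (24), Trib2 (21), 4933406K04Rik (20), Acvr2a, an activin receptor (15), Tbl1xr1 (14), Btg1, Setbp1, Gm17746 and Rasa1 (13 each). Of the 15 peaks nearest to Acvr2a, 12 lay in the noncoding transcript Gm13481 of GENCODE. A mean of at least 1 FPKM (fragments per transcript length and library size, a level that is per length) in WT iTreg was reached by 230 of the 497 (46.3%), by 44.2% of all loci, and by 26.7% of loci that border far sequence but are nearest to no far peak. On the T cell list, 103 of 131 genes (78.6%) reached it.

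The RNA comparison asks what happened to the nearest genes in iTreg cells without Bach2. In limma on log2(FPKM + 0.5) with a Benjamini-Hochberg adjusted p under 0.05, 74.6% of 11403 tested loci were called, so a call is the usual state of a gene here. Of the 497 nearest loci, 250 passed the filter on low values (a mean of at least 0.5 over the 6 libraries) and 195 of these were called (78.0%), near the background. The calls were 99 higher (39.6% of those tested, against 41.1% of all loci) and 96 lower in Bach2KO (38.4%, against 33.6%). This split moved with the scaling: it was 82 higher and 115 lower after quantile normalization, and 74 and 128 with equal summed FPKM, as the median of all tested loci shifted from 0.07 to -0.09 and -0.18 on the log2 scale. Changes of at least 2-fold among called loci were seen in 69 of the 250 (27.6%), against 22.1% of all tested loci. The 3 WT and 3 Bach2KO values did not overlap in 203 of the 250 (81.2%), against 79.4% of all tested loci. The median log2 difference of the 250 was -0.04. Of 86 tested loci nearest to 3 or more far peaks, 34 were higher (39.5%) and 35 lower (40.7%), with a median of -0.07. Of 39 tested loci nearest to 5 or more far peaks, 30 were called (76.9%). Of these 39, 11 were higher (28.2%) and 19 lower (48.7%), with a median of -0.22.

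The libraries were T cell libraries by their markers, with varying levels of markers of other cells. The 7 CD4 T cell markers summed to 1439 to 1484 FPKM in WT and 1301 to 1460 in Bach2KO, while of the 3 Treg markers Foxp3 was lower, Il2ra was higher and Ctla4 did not pass the test. Foxp3, the Treg factor, averaged 72.5 ± 7.60 FPKM in WT (SD, n = 3) and 11.1 ± 7.56 in Bach2KO, Il2ra, the IL-2 receptor α chain, 78.6 ± 14.8 and 312 ± 59.6, and Ctla4, an inhibitory receptor, 131.6 ± 17.4 and 170.7 ± 50.0. The 9 B cell markers, each above 0 in every WT library, summed to 65.1, 11.6 and 36.7 FPKM in WT and 13.7 to 20.6 in Bach2KO. The 7 dendritic cell markers, whose level came mostly from H2-Aa, H2-Ab1 and Cd74, summed to 218, 26.6 and 108 in WT and 153 to 178.3 in Bach2KO. These WT sums ranked the libraries in the same order as the B cell sums. Among the remaining dendritic markers, Itgax averaged 0.00419 FPKM in WT and 0.0182 in Bach2KO, and Flt3 0.244 and 0.0178. Batf3 rose from 0.0212 to 9.89 and Zbtb46 from 0.235 to 3.00, so the members of this set did not move together. The 6 myeloid markers summed to 3.05 to 4.32 and 0.139 to 0.434; nearly all of the WT sum was Itgam (mean 3.70 FPKM), and Lyz2 was at 0 in each WT library. The 5 markers of CD8, NK and gamma-delta T cells summed to 8.24 to 10.0 FPKM in WT and 12.5 to 14.2 in Bach2KO. By group means, Cd8a rose from 0.0925 to 2.23 and Cd8b1 from 4.91 to 9.19, while Klrd1 fell from 4.37 to 1.64. Klrb1c (0.00444 and 0.00869) and Ncr1 (0.0583 and 0) were close to absent. The 5 mast and erythroid markers summed to 3.33 to 4.04 in WT and 2.91 to 4.17 in Bach2KO. Any part of other cells in the differences below was not tested. In bulk RNA, fewer cells of a type and less RNA per cell cannot be told apart.

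Among the 23 listed T cell genes, 22 were tested and 20 called (90.9%, against 74.6% of all tested loci), 8 higher (36.4%, against 41.1%) and 12 lower in Bach2KO (54.5%, against 33.6%), with a median log2 difference of -0.28. The whole list of 131 had 122 tested and 106 called (86.9%), close to the share of the 23. Of these 122, 65 were higher (53.3%) and 41 lower (33.6%). The median was 0.43 for the list and 0.07 for all tested loci. Ifng and Prdm1 passed the filter through their Bach2KO values, as Ankrd55 below did through its WT values, so these genes had to differ. Ifng and Prdm1 are counted in the 20 called and the 8 higher. The 23 genes are described by role, with no test of any role. All log2 differences below are on the scale of log2(FPKM + 0.5), which understates changes of low genes, and adjusted p-values are from limma.

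Among all tested loci, 33.6% were called lower and 41.1% higher in Bach2KO. Of the 16 transcription factors, 9 were called lower and 5 higher, and Ikzf2 was not tested. Among the lower, Bach2, whose deletion defines the Bach2KO cells, was at 17.9, 17.7 and 17.2 FPKM in WT and 3.91, 3.39 and 4.12 in Bach2KO, a log2 difference of -2.08 ± 0.07 (SE; adjusted p = 4.44e-06). The groups did not overlap, and reads on the gene remained in the Bach2KO libraries. Bcl6 was at 12.2, 12.4 and 12.8 FPKM in WT and 4.87, 2.91 and 6.65 in Bach2KO (log2 difference -1.35 ± 0.26, adjusted p = 0.00357). Each Bach2KO value of Bcl6 was below each WT value, with a wider spread. Maf, a large Maf-family factor that drives IL-10 and IL-21, fell from 40.7, 49.1 and 40.5 to 14.3, 11.8 and 14.4 FPKM (-1.65 ± 0.11, adjusted p = 3.71e-05). Tox, a nuclear factor of T cell development and exhaustion, fell from 20.9, 21.7 and 20.0 to 8.51, 9.15 and 7.07 FPKM (-1.29 ± 0.10, adjusted p = 6.09e-05). Foxo1 (-0.84), Foxp1 (-0.82) and Lef1 (-0.75), which keep T cells naive and quiescent, also fell. Ets1, at 277 to 278 FPKM in WT, fell less (-0.38 ± 0.06), and Runx1 least (-0.18 ± 0.04, adjusted p = 0.00656).

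The 5 higher factors were Prdm1, Gata3, Klf6, Runx2 and Jun. Prdm1, which encodes Blimp-1 and drives effector differentiation, was at 0.301, 0.392 and 0.162 FPKM in WT and 6.84, 3.93 and 7.99 in Bach2KO (3.06 ± 0.26, adjusted p = 0.000105). Its 2 far peaks had 10 tags each. Gata3, the Th2 factor, rose from 8.96, 9.77 and 8.75 to 18.5, 14.1 and 19.1 FPKM (0.87 ± 0.12, adjusted p = 0.00094), and was at 101.9 FPKM in the Th2 library. Klf6 (1.38), Runx2 (1.46) and Jun (1.11), a subunit of AP-1, rose too. Their groups did not overlap, as in 79.4% of all tested loci. Zeb1 did not pass (-0.04 ± 0.05, adjusted p = 0.465), but did under quantile normalization and with equal summed FPKM (adjusted p from 0.0022 to 0.0347). Ikzf2, the Treg factor Helios, was below the filter, at 0.245 to 0.405 FPKM in WT and 0.410 to 0.663 in Bach2KO.

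Receptors and signalling genes moved in both directions. Tgfbr2, a subunit of the receptor for TGF-β that iTreg cultures depend on, was at 140, 137 and 122 FPKM in WT and 68.0, 62.4 and 66.8 in Bach2KO (-1.01 ± 0.07, adjusted p = 3.80e-05). The chemokine receptor gene Cxcr4 was at 33.6, 32.2 and 31.3 FPKM in WT and 15.8, 12.8 and 20.3 in Bach2KO (-0.99 ± 0.16, adjusted p = 0.00162). Nrp1, a surface protein of Treg cells, fell from 17.2, 17.3 and 19.1 to 4.53, 7.11 and 3.54 FPKM (-1.77 ± 0.23, adjusted p = 0.000594). None of these 3 genes had overlapping groups, which also held for 79.4% of all tested loci. The costimulator Icos rose (0.59 ± 0.05) and so did Dusp6, a phosphatase that limits ERK signalling (1.53 ± 0.12). Cblb, a ubiquitin ligase that damps T cell receptor signals, did not pass (-0.14 ± 0.14, adjusted p = 0.389), and its sign turned without Bach2KO replicate 2 (0.022). With equal summed FPKM, Cblb passed (adjusted p = 0.0392). Ifng, the Th1 cytokine gene, was at 0.0315, 0 and 0.0615 FPKM in WT and 10.6, 22.8 and 3.99 in Bach2KO (4.31 ± 0.57, adjusted p = 0.000685), with 12.4 FPKM in the Th1 library.

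**Figure D5:**
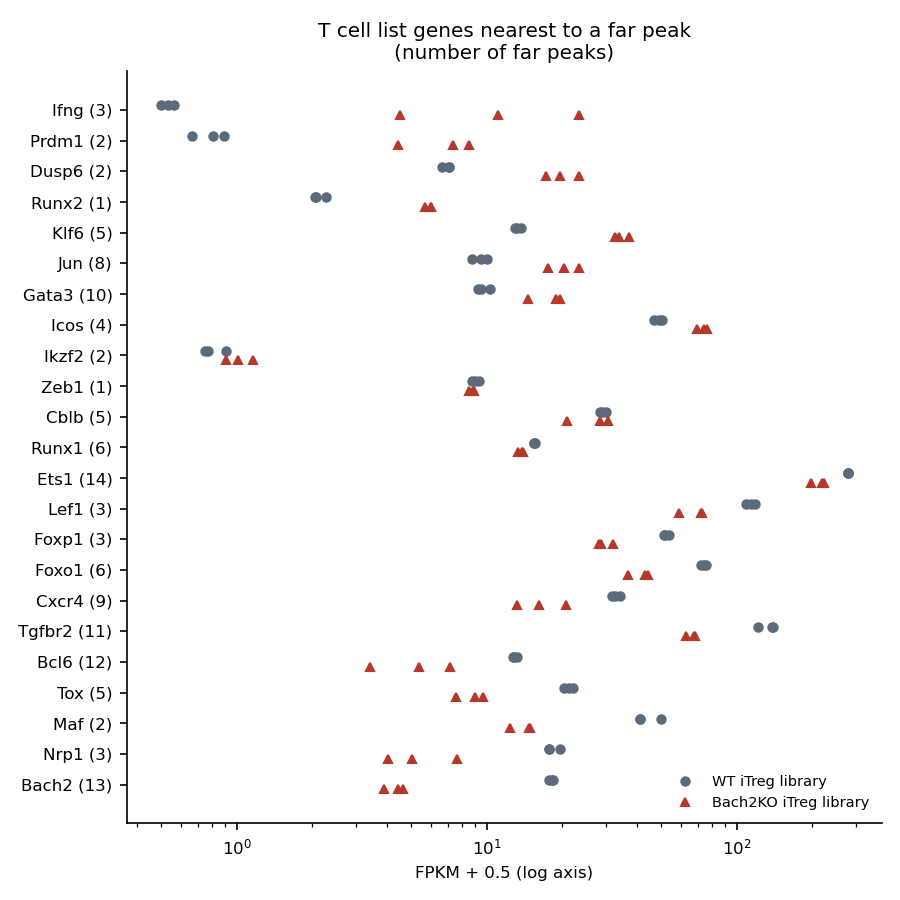
FPKM + 0.5 (log axis) of the 23 listed T cell genes that are nearest to a far peak, in each WT (circles) and Bach2KO (triangles) iTreg library, with the number of far peaks in brackets. Ifng and Prdm1 at the top have the largest rises, Bach2 and Nrp1 at the bottom the largest falls, and the circles and triangles of Zeb1 and Cblb overlap.

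The largest rises and falls among nearest genes reached beyond the list. Besides Ifng and Prdm1, the 8 largest rises were in Cdk6, a kinase of the G1 phase (3.82), Gadd45g (3.30), Kif20b, a mitotic kinesin (2.79), Rbpj (2.47), Mms22l, a replication-fork repair factor (2.08) and Obfc2a (1.96). Cdk6 was at 1.37, 1.01 and 2.14 FPKM in WT and 26.4, 31.5 and 23.7 in Bach2KO (adjusted p = 2.18e-05), beside 1 far peak of 12 tags. Gadd45g, a stress-response gene that promotes IFN-γ production in Th1 cells, was at 3.65, 3.68 and 3.70 and at 37.2, 62.3 and 28.7 FPKM (adjusted p = 8.48e-05), beside 3 far peaks of which the largest had 230 tags. Rbpj was at 13.8, 13.5 and 15.3 and at 83.7, 74.7 and 84.4 FPKM (adjusted p = 2.31e-06).

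Besides Bach2 and Nrp1, the 8 largest falls were in Ankrd55 (-3.05), Atp1b1, a subunit of the sodium pump (-2.38), Fam113b (-2.13), 2810001G20Rik (-2.04), Itga4, the α4 integrin (-1.84) and Nucb2 (-1.71). Ankrd55 was at 5.82, 6.41 and 6.36 FPKM in WT and 0.222, 0.307 and 0.410 in Bach2KO beside 5 far peaks; its Bach2KO mean was under the filter. The cytokine receptor gene Il6st, which lies within 1 Mb of far peaks but is nearest to none, was at 50.5, 45.7 and 47.1 FPKM in WT and 10.3, 9.43 and 10.7 in Bach2KO (-2.18 ± 0.06). Atp1b1 was at 60.6, 62.9 and 65.3 and at 11.4, 17.5 and 7.85 FPKM (adjusted p = 0.00033), beside 2 far peaks of which the larger had 183 tags.

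The genes beside the fullest gaps did not share a direction. Btg1 was at 266, 262 and 252 FPKM in WT and 89.1, 86.2 and 78.2 in Bach2KO (-1.62 ± 0.06, adjusted p = 4.65e-06), while Eea1, an endosome tether on the other side of the same gap, rose (0.76 ± 0.12). Trib2 fell (-0.64 ± 0.13, adjusted p = 0.00477), as did Acvr2a (-0.75 ± 0.05), and Setbp1 rose from a mean of 0.630 to 2.43 FPKM (1.34 ± 0.20). Pvt1, at 3.05, 3.49 and 3.74 FPKM in WT and 2.99, 3.20 and 2.42 in Bach2KO, did not pass (-0.22 ± 0.12, adjusted p = 0.128), although it did under quantile normalization and equal sums. Some listed genes within 1 Mb of far peaks that do not flank these gaps were named after their values were seen. Of these, Myc, in the neighbourhood of Pvt1, rose (1.52), as did Socs2 (2.44) and Id2 (1.69), while Bcl11b fell (-0.62 ± 0.06, adjusted p = 0.000209). Others within that distance, such as Satb1, Nfatc2 and Il7r, were not called, and 86.9% of all tested genes on the list were called. The loci 4933406K04Rik and Gm17746 were at 0 FPKM in the 6 iTreg libraries.

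Nearest to the strong peaks, called differences ran in both directions, and larger ones stood on the other side of some gaps, as for Rbpj and Btg1 above. Rasgrp1 was at 136, 137 and 123 FPKM in WT and 84.8, 82.4 and 81.1 in Bach2KO (-0.67 ± 0.05, adjusted p = 7.54e-05). Tbl1xr1 rose (0.42 ± 0.06, adjusted p = 0.00118), as did Ado (0.36 ± 0.06, adjusted p = 0.00210) and Atp10a, a phospholipid flippase (0.81 ± 0.09), but Tbl1xr1 and Ado did not pass with equal sums (adjusted p = 0.0650 and 0.138). Zfp386 fell (-0.46 ± 0.12, adjusted p = 0.0142) and was not called without the filter (adjusted p = 0.0564). For 1810013D10Rik the fall (-0.22 ± 0.08, adjusted p = 0.0411) was lost without any 1 of WT replicates 1 and 2 and Bach2KO replicates 1 and 2 and in 2 other alternatives (adjusted p from 0.0897 to 0.122). Max did not pass (0.27 ± 0.11, adjusted p = 0.0666), but passed without Bach2KO replicate 2 or 3. Near the farthest peaks, Cox7c rose (0.56 ± 0.04) and Sel1l did not pass (-0.06 ± 0.04, adjusted p = 0.216). Under quantile normalization and equal sums, Sel1l passed (adjusted p from 0.000471 to 0.00452). Fam92b, 1700041M19Rik, 4930428G15Rik and Tyrp1 were at 0 FPKM in the 6 libraries, and Gm8709, Zswim2, Lrrc4c, Pabpc2, Pcdh19 and D330050G23Rik stayed under 0.1 FPKM in each.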

How the data were processed

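Bach2 binding was measured in 1 ChIP library with 1 input, and RNA in 10 libraries. The peak list was made by the authors with MACS 1.4.0beta, per the file headers (p-value cutoff 1e-05, reads placed on mm9 by Bowtie, as the submitters' processing notes say). It gives tag counts, a score (10 times the −log10 p-value), fold enrichment as a ratio and the FDR in percent, all as deposited. The FPKM values were made by the authors with TopHat and Cufflinks on mm9 from unique reads of 50 bp, per the labels' protocols, and their depth is unknown. For TopHat, Cufflinks and Bowtie the version is not stated in what was used here. The design had assumed RPKM or FPKM, and the file headers say FPKM.

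Distances, groups and motif counts were computed in Python 3.11.15 with the NCBIM37 (mm9) genome, whose chromosome lengths match, and GENCODE gene models of the same build. Motif windows reached 100 bases to each side of the summit. The genome copy is not repeat-masked, so the number of copies of 49-base words replaced the planned repeat share. The loci of the 3 WT and 3 Bach2KO iTreg libraries with a mean of at least 0.5 FPKM were tested with limma 3.58.1 (R 4.3.3) on log2(FPKM + 0.5), two-sided, with Benjamini-Hochberg adjustment over 11403 loci and a threshold of 0.05, after 72 loci with a failed estimate were left out. Distances, motifs and limma were tested on simulated data. Same-numbered WT and Bach2KO libraries did not deviate together, so no pairing was used.

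The far peaks, the T cell list and the marker lists were chosen with earlier results of these data known. The named peaks are the 10 with most tags, the 10 of highest fold enrichment, the 5 farthest, 3 on each side of the limit and groups of 3 or more within 20 kb of the next, of which the largest are described. The named genes are their nearest loci, the 10 loci nearest to most far peaks, nearest loci on the T cell list, and, among called loci without overlap, 8 rises and 8 falls of greatest size and with a mean of at least 5 FPKM in 1 group. Rasa1, Myc, Socs2, Id2, Bcl11b and Il6st fall outside this rule and were named after their values were seen. Alternatives covered the distance limit, peak position, gene models, peak thresholds, motif and window, pseudocount, filter, scaling, a replicate block and leaving out each library. One locus that this rule names, with its peaks, is not reported here.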

Additional observations from a re-analysis of the deposited data

How the results depend on the processing

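The number of far peaks was 2426 with a limit of 50 kb, 430 with 200 kb, 769 by GENCODE genes and 609 among peaks with a score of at least 100, against 1215 in the main rule. The median tag count of far peaks was 22 with the 200 kb limit and 39 (other peaks 49) with a score of at least 100, and it stayed below that of the other peaks in each alternative. The share of far peaks with TGANTCA was 39.3% with 200 kb (43.2% in other peaks, so the order turned), 34.4% within 50 bases, 56.5% in the whole peak and 53.7% with a score of at least 100; TGAGTCA gave 40.3% and the extended core 9.96%. The called nearest genes numbered 434 with 50 kb and 67 with 200 kb, because more or fewer loci were nearest to a far peak, and 182 to 205 when 1 library was left out. With the replicate number as a block, 186 of 250 were called, 97 higher and 89 lower; same-numbered libraries correlated at -0.04, -0.04 and 0.01 in their deviations, so the numbers do not pair the libraries. Summed FPKM was lower in WT than in Bach2KO libraries, and the scaling changed the split of calls as given above. Cblb ranged from -0.25 to 0.022 when 1 library was left out and turned sign without Bach2KO replicate 2 (adjusted p = 0.698 in limma) and Max with equal sums (-0.0015, adjusted p = 0.990); the cause was not tested. Of the other alternatives for single genes, 643 kept the direction and side of the threshold, 9 lost and 9 gained a call. One ChIP library without a replicate limits each statement on peaks.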
